A study of Homo sapiens with 28 samples.

Results

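The genes FGA, FGB, FGG, SERPINA1, C3, AGR2 and TM4SF4 were followed across 28 microarrays of 2 human lung cancer lines exposed to a pair of DNA-demethylating drugs. They are 7 of 11963 genes that the array names singly, chosen by their signals, as secretory products high in vehicle-treated A549 cells of which several were lower with azacitidine. Their 11 probe sets were found by annotated symbol, 10 of them passed the filter on dim signals, and each gene was represented by its brightest probe set among 8024 genes tested. Because the A549 vehicle and A549 azacitidine arrays chose the genes, comparisons of A549 azacitidine with vehicle or decitabine are given as a description, with no test. The same holds for A549 vehicle against H1299 vehicle. Tests of decitabine against A549 vehicle are not independent of that choice, since genes picked as high in vehicle are favoured to read lower elsewhere.

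RNA came from A549, an adenocarcinoma line with features of alveolar epithelium, and from H1299, a non-small cell lung carcinoma line. In either line cells received azacitidine (0.3, 1 or 3 µM) or decitabine (the same doses) for 48 h, or DMSO (dimethyl sulfoxide) as vehicle control, for which the labels give no time, with 2 arrays for each of the 14 groups. The drugs share 1 modified cytosine base, on ribose in azacitidine and on deoxyribose in decitabine, and bind DNA methyltransferases irreversibly after incorporation into DNA. Each line is 1 established culture model without stroma or blood cells, and no label states that the 2 arrays of a group are separate cultures, so p-values measure only the spread between these arrays.

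Signals are the authors' MAS5 values on a linear scale, and the median of an array lay between 92.7 and 123.2. A log2 difference is on the scale of log2(signal + 32), which draws changes of dim genes toward 0. The lines carried their own markers: all 6 A549 markers, such as the aldo-keto reductase AKR1B10 and the carbamoyl phosphate synthase CPS1, exceeded the array median on all 14 A549 arrays and on no H1299 array. Of 11 alveolar type II markers, 6 exceeded the median on no A549 array and 5 on no H1299 array. Among the 6 were the surfactant genes SFTPC and SFTPD and the lung regulator NKX2-1. SFTPB, ABCA3 and PGC exceeded it on 8, 9 and 5 of 14 A549 arrays and 7, 8 and 1 of 14 H1299 arrays. ETV5 and LPCAT1 exceeded the median on all 14 arrays of either line. Of 6 leukocyte markers, 0 exceeded it on any A549 array. On the H1299 arrays HCLS1 exceeded it on 8 of 14, LAPTM5 on 3 and the other 4, PTPRC among them, on 0.

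Fibrinogen is the clotting protein that thrombin turns into fibrin. It is built from an alpha, a beta and a gamma chain, the products of FGA, FGB and FGG, which are assembled in the endoplasmic reticulum of hepatocytes and raised in the acute-phase response by interleukin-6. SERPINA1 encodes alpha-1 antitrypsin, the plasma inhibitor of neutrophil elastase that protects the lung, and C3 is the central component of complement. AGR2 is a disulfide isomerase of the endoplasmic reticulum in mucus-secreting epithelium, and TM4SF4 is a membrane protein of the transmembrane 4 superfamily found in liver and gut epithelium, so the last of these is not itself secreted.

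The fibrinogen genes lie side by side on chromosome 4 in the order FGB, FGA, FGG, with 0 other protein-coding gene starts between them in RefSeq. Their promoters are shown because these 3 genes fell together in A549 with azacitidine and because the drugs bind DNA methyltransferases, the enzymes of CpG methylation. DNA methylation was not measured on these arrays. The azacitidine arrays chose the genes, and with decitabine at 3 µM their log2 differences from vehicle ran from 0.02 (FGA) to -0.71 (FGG). Whether the marked motifs bear on any of these differences was not tested. Each window holds 250 bases before and 50 bases after the RefSeq start (GRCh38.p14): FGA at chr4:154590693-154590992 on the minus strand, FGB at chr4:154562730-154563029 on the plus strand and FGG at chr4:154612607-154612906 on the minus strand. Capitals mark the core of the binding motif of the liver factor HNF1 (GTTAAT or ATTAAC) and the core of the interleukin-6 response element (CTGGGAA or TTCCCAG), both searched on either strand.
FGA: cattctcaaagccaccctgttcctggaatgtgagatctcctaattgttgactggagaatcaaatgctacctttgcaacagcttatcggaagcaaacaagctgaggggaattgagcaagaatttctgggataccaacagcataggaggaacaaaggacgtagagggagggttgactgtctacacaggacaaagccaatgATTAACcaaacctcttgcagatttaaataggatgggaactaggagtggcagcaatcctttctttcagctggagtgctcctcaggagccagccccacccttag
FGB: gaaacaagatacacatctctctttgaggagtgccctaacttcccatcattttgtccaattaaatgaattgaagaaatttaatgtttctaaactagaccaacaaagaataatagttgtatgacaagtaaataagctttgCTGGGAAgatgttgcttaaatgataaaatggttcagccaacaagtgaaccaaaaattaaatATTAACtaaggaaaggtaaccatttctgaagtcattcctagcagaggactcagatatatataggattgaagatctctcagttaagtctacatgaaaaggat
FGG: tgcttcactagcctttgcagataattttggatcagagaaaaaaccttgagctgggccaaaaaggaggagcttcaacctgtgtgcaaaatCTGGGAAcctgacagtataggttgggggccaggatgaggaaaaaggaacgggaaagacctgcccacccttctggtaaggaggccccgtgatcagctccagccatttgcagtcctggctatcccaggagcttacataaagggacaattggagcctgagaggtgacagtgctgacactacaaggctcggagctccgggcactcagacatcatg
The HNF1 core stood at position -52 in FGA and at -51 in FGB, and no match to it was found in the FGG window. The interleukin-6 core stood at -112 in FGB and at -161 in FGG. A second RefSeq window of FGB, from a start further downstream, held the same pair of cores at -82 (HNF1) and -143 (interleukin-6). Of 35116 promoter windows of the same length, 6.88% held the HNF1 core and 10.8% the interleukin-6 core, and no 2 matches overlapped in these windows. The windows held 2, 0 and 4 CpG dinucleotides for FGA, FGB and FGG, against a median of 14 and quartiles of 4 and 28 over all windows. AGR2 had 6, TM4SF4 had 4 with an HNF1 core at -139, and the 2 SERPINA1 windows had 8 and 12, the second with an HNF1 core at -76.

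In vehicle-treated A549 cells 6 of the 7 genes stood above their level in H1299, and SERPINA1 did not. AGR2 lay at the 92.3 percentile of all probe sets on the A549 vehicle arrays, FGB at 78.1, FGA at 70.9, FGG at 64.8, C3 at 62.4 and TM4SF4 at 56.8. In H1299 vehicle cells the same probe sets lay at 9.55 (AGR2), 18 (FGB), 37 (FGA), 15.1 (FGG), 18.6 (C3) and 13.4 (TM4SF4), and none of them exceeded the array median on any of the 14 H1299 arrays. AGR2, for example, had signals of 2491 and 1932 on the A549 vehicle arrays, against 6.63 and 3.13 on the H1299 vehicle arrays. In such bulk RNA fewer expressing cells and less RNA per cell cannot be told apart. For 6 of 7 genes both A549 arrays lay above both H1299 arrays, while 39.4% of all genes did so. The genes were chosen as high on these A549 vehicle arrays, so nothing is read from this count.

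SERPINA1 went against the description that chose it. Its signals were 13.03 and 50.7 in A549 vehicle cells, at the 27.4 percentile, and 81.5 and 72.9 in H1299 vehicle cells, at the 46.1 percentile. Its brightest probe set exceeded the array median on 0 of 14 A549 arrays and on 8 of 14 H1299 arrays. Those were both arrays of azacitidine at 0.3 µM and all decitabine arrays, and only through them did it pass the filter. Comparisons of those groups with other H1299 groups are therefore not independent of the filter. The second probe set gave the same order, with 36.6 and 13.03 in A549 vehicle cells and 74.9 and 71.9 in H1299 vehicle cells, and the third was dim on every array. SERPINA1 is therefore described as a gene of the H1299 arrays below, and its A549 values as signals under the array median.

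With azacitidine the 3 fibrinogen genes of A549 were close to their vehicle level at 0.3 µM and lower at 1 and 3 µM. FGA had signals of 409 and 421 in vehicle, 413 and 399 at 0.3 µM, 154.5 and 122.7 at 1 µM and 88.5 and 66.4 at 3 µM. The step lay between 0.3 and 1 µM, and the arrays of those doses did not overlap. FGB had 679 and 625 in vehicle, 583 and 556 at 0.3 µM, 137 and 130.1 at 1 µM and 102 and 60.0 at 3 µM. FGG had 289 and 291 in vehicle, 252 and 304 at 0.3 µM, 57.2 and 89.4 at 1 µM and 59.2 and 63.8 at 3 µM, so that the arrays of the 2 higher doses overlapped. At 3 µM the mean signals were 77.4 ± 15.6 for FGA, 81.0 ± 29.7 for FGB and 61.5 ± 3.25 for FGG, against 415 ± 8.49, 652 ± 38.4 and 289.8 ± 1.01 in vehicle (SD, n = 2 each). These are ratios of vehicle over azacitidine of 5.36, 8.04 and 4.71.

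The second probe sets of FGA and FGB followed the first. For FGA the signals were 80.9 and 84.4 in vehicle, 70.3 and 83.2 at 0.3 µM, 12.2 and 5.64 at 1 µM and 1.14 and 0.852 at 3 µM, the last near the bottom of the array. For FGB they were 293 and 254 in vehicle, 273 and 279 at 0.3 µM, 58.6 and 69.3 at 1 µM and 30.5 and 31.2 at 3 µM. Over the means of the 7 A549 groups the log2 signals of FGA and FGB had a Pearson r of 0.99, FGB and FGG 0.96, and FGA and FGG 0.93. These points share the vehicle group and both drugs' dose series, and the azacitidine groups chose the genes.

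AGR2 and C3 were lower at every azacitidine dose. AGR2 had signals of 2491 and 1932 in A549 vehicle cells, 1528 and 1665 at 0.3 µM, 482 and 542 at 1 µM and 169 and 158 at 3 µM. No 2 of these groups overlapped, and the mean at 3 µM was 164 ± 7.81, against 2212 ± 395 in vehicle (SD, n = 2 each), a ratio of vehicle over azacitidine of 13.5. C3 had 258 and 243 in vehicle, 121 and 184 at 0.3 µM, 92.1 and 101 at 1 µM and 56.1 and 66.7 at 3 µM, again with no overlap between doses. Its ratio of vehicle over azacitidine at 3 µM was 4.08.

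TM4SF4 differed from the others at the low dose. Its signals were 171 and 182 in A549 vehicle cells, 220.2 and 196 at 0.3 µM, 10.5 and 76.4 at 1 µM and 15.0 and 5.28 at 3 µM. The 0.3 µM arrays lay above the vehicle arrays, and the replicates at 1 µM lay far apart. At 3 µM both arrays were in the range of its H1299 signals or little above it, which ran to 8.09. SERPINA1 had dim signals throughout, 13.03 and 50.7 in vehicle, 11.04 and 42.2 at 0.3 µM, 9.94 and 32.7 at 1 µM and 11.4 and 15.3 at 3 µM, and its groups overlapped.

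**Figure D1:**
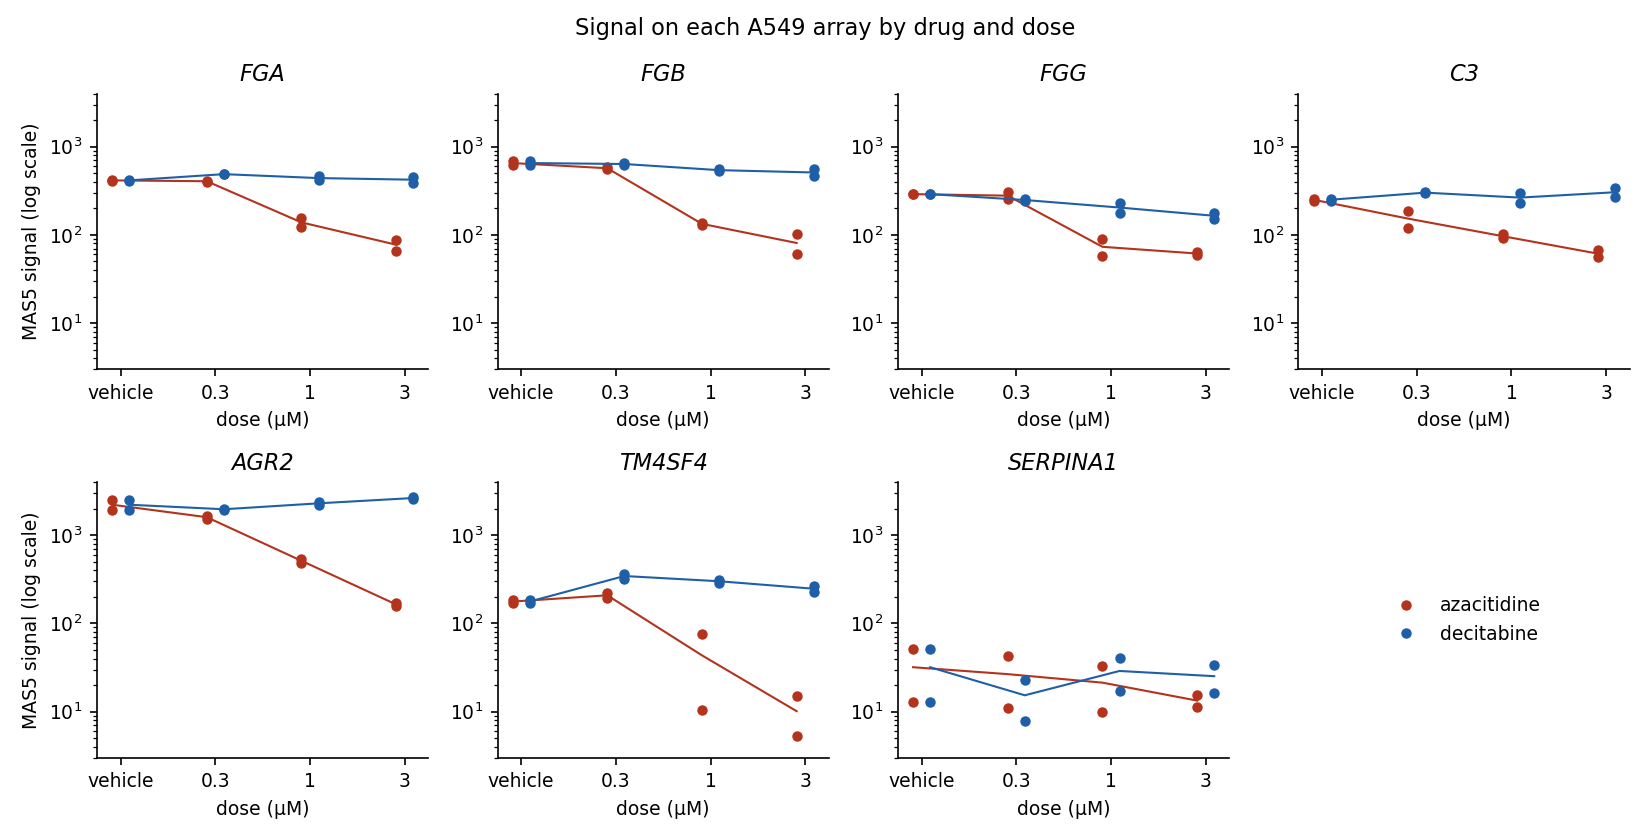
MAS5 signal (log axis) of the 7 genes on each A549 array against dose in µM, for azacitidine and decitabine, with lines through the group means; the 2 vehicle arrays are drawn under both drugs. With azacitidine 6 genes lay below vehicle at 1 and 3 µM, AGR2 reaching 169 and 158 at 3 µM, while the decitabine arrays of AGR2 lay between 1952 and 2731.

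On the log2 scale the median difference of the 7 genes from vehicle was -0.11, -1.62 and -2.04 at 0.3, 1 and 3 µM of azacitidine, beside -0.02, -0.01 and 0.06 over all 8024 genes. Both treated arrays lay below both vehicle arrays for 3, 6 and 6 of the 7 genes, and for 25.8%, 29.7% and 27.3% of all genes. The choice of the genes sets these counts, so nothing is read from them. At 3 µM the log2 difference was -3.51 for AGR2, -2.62 for FGB, -2.32 for TM4SF4, -2.04 for FGA, -1.78 for FGG, -1.60 for C3 and -0.43 for SERPINA1. The differences of these 7 genes at 1 and 3 µM stayed negative under both scalings and all pseudocounts tried, with that of TM4SF4 at 3 µM ranging from -4.15 to -1.14 with the pseudocount. They were also negative in the second probe sets of FGA, FGB and SERPINA1. The third SERPINA1 probe set, dim on every array, differed by 0.03 and 0.32, and the other 4 genes have 1 probe set each.

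With decitabine few differences from vehicle passed the test among the 7 genes in A549. Of the 7, 0, 0 and 1 passed limma's moderated test at 0.3, 1 and 3 µM after Benjamini-Hochberg adjustment over all genes (adjusted p under 0.05), while 7.68%, 16.5% and 25.8% of all genes did. With no adjustment 1, 1 and 2 of the 7 had p under 0.05. Here and below, the share of all genes with unadjusted p under 0.05 was not counted, so nothing is read from such counts. A share of the 7 at or below that of all genes is no result about them as a group.

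FGG was the 1 gene that passed, against the vehicle arrays on which it was chosen as high. Its signals were 289 and 291 in vehicle, 240.0 and 257 at 0.3 µM, 176 and 232 at 1 µM and 177 and 152 at 3 µM. Both arrays of every dose lay below both vehicle arrays. The log2 difference of FGG at 3 µM was -0.71 (SE 0.221, adjusted p = 0.0213), with a mean signal of 165 ± 17.8 in decitabine, against 289.8 ± 1.01 in vehicle (SD, n = 2 each). The call did not hold with a pseudocount of 1 (adjusted p = 0.329). Nor did it hold without any 1 of the 4 arrays: adjusted p was 0.0839 and 0.0726 without vehicle replicate 1 or 2, 0.0556 without decitabine replicate 1, the array labelled a repeat, and 0.115 without decitabine replicate 2. Between 3 µM and 0.3 µM of decitabine, which leaves the vehicle arrays out, FGG differed by -0.51 (95% interval -0.98 to -0.05, adjusted p = 0.158) and did not pass.

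The other fibrinogen genes did not pass. FGB had 679 and 625 in vehicle, 649 and 622 at 0.3 µM, 529 and 554 at 1 µM and 559 and 460.4 at 3 µM, a log2 difference at 3 µM of -0.34 (95% interval -0.73 to 0.05, adjusted p = 0.191). FGA had 409 and 421 in vehicle, 491 and 485 at 0.3 µM, 462 and 419 at 1 µM and 453 and 391 at 3 µM, a difference of 0.02 (-0.35 to 0.40, adjusted p = 0.949). The 3 chains thus ran from the highest to the lowest difference in the order FGA, FGB, FGG at each dose, and the intervals of all 3 overlapped at 3 µM. The second FGA probe set read 115 and 125 at 3 µM, above its 80.9 and 84.4 in vehicle, and the second FGB probe set read 147 and 219, below its 293 and 254.

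AGR2 had higher signals at higher decitabine doses in A549. It had 1977 and 1952 at 0.3 µM, 2362 and 2224 at 1 µM and 2731 and 2537 at 3 µM, with no overlap between doses, and 2491 and 1932 in vehicle, which spanned the first 2 of them. Between 3 µM and 0.3 µM, a comparison that uses none of the arrays that chose the genes, AGR2 rose by 0.42 (SE 0.120, adjusted p = 0.0321). The means were 2634 ± 137 at 3 µM and 1965 ± 18.1 at 0.3 µM (SD, n = 2 each). AGR2 was the only 1 of the 7 to pass there, where 9% of all genes passed. With no adjustment 2 of the 7 had p under 0.05, a count with no share of all genes beside it. The AGR2 call was lost after median centring (adjusted p = 0.0511), with a pseudocount of 1 (0.361) and with no filter on dim probe sets (0.0527). It was also lost without any 1 of the 4 arrays.

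TM4SF4 was above vehicle on all 6 decitabine arrays of A549. Its signals were 171 and 182 in vehicle, 366 and 322 at 0.3 µM, 290.0 and 311 at 1 µM and 229.6 and 265 at 3 µM. The difference from vehicle was 0.85 at 0.3 µM (95% interval 0.30 to 1.39, adjusted p = 0.0515), 0.67 at 1 µM (0.13 to 1.22, adjusted p = 0.0865) and 0.42 at 3 µM (-0.13 to 0.96, adjusted p = 0.258). None of the 3 passed over all genes, and the sizes ran from the low dose to the high dose in falling order. Between 3 µM and 0.3 µM TM4SF4 differed by -0.43 (95% interval -0.98 to 0.11, adjusted p = 0.349).

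C3 and SERPINA1 did not pass at any decitabine dose in A549. C3 had 258 and 243 in vehicle, 299 and 303 at 0.3 µM, 232 and 297 at 1 µM and 271 and 337 at 3 µM, with a difference at 3 µM of 0.25 (95% interval -0.22 to 0.71, adjusted p = 0.455). SERPINA1 had 16.3 and 34.2 at 3 µM, against 13.03 and 50.7 in vehicle. AGR2 at 3 µM differed from vehicle by 0.26 (0.01 to 0.51, adjusted p = 0.121).

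**Figure D2:**
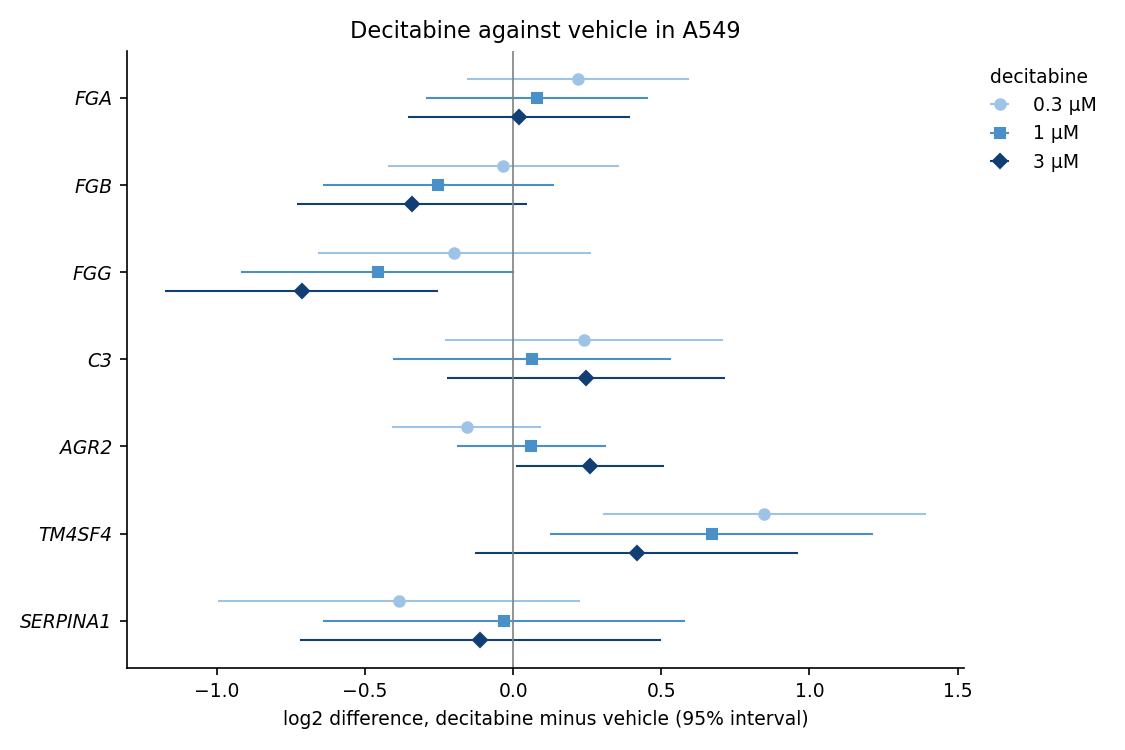
Log2 difference of decitabine from vehicle in A549 for the 7 genes at 0.3, 1 and 3 µM, with 95% intervals from limma (2 arrays a group). FGG lies lowest at 3 µM (-0.71), TM4SF4 highest at 0.3 µM (0.85), and most intervals cross 0.

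At 1 and 3 µM the 2 drugs were furthest apart in A549 for AGR2 and TM4SF4. At 1 µM the log2 difference of azacitidine minus decitabine was -2.29 for TM4SF4 and -2.10 for AGR2. At 3 µM it was -3.77 for AGR2, -2.74 for TM4SF4, -2.28 for FGB, -2.06 for FGA, -1.84 for C3, -1.07 for FGG and -0.32 for SERPINA1. AGR2 had 169 and 158 with azacitidine and 2731 and 2537 with decitabine at that dose. At 0.3 µM the order was another, with differences between -0.87 (C3, the furthest apart) and 0.27 (SERPINA1), and -0.65 for TM4SF4 and -0.29 for AGR2. The azacitidine arrays chose the genes, so these differences carry no test.

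In H1299 the 6 genes other than SERPINA1 stayed below the array median on every array, whatever the drug. AGR2 ranged from 2.604 to 6.63 with a median of 3.54, TM4SF4 from 5.02 to 8.09 with a median of 6.60, FGB from 3.72 to 22.8 with a median of 8.33, C3 from 2.49 to 26.6 with a median of 8.77, FGG from 3.98 to 40.3 with a median of 13.8 and FGA from 6.17 to 45.8 with a median of 29.1. No dose of either demethylating drug brought a fibrinogen gene, AGR2, C3 or TM4SF4 above the array median in this line. Of the 7 genes 0, 0 and 2 passed against vehicle at 0.3, 1 and 3 µM of azacitidine, where 5.63%, 35.2% and 53.9% of all genes passed. With decitabine 1, 0 and 0 passed, where 17.6%, 23.3% and 30.9% of all genes did. The counts with unadjusted p under 0.05 were 2, 0 and 2 with azacitidine and 2, 2 and 1 with decitabine. No share of all genes was counted beside them, so nothing is read from these counts.

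SERPINA1 fell in H1299 with azacitidine at 3 µM. Its signals were 81.5 and 72.9 in vehicle, 99.0 and 102 at 0.3 µM, 45.6 and 58.7 at 1 µM and 15.1 and 18.4 at 3 µM of azacitidine. The 3 µM arrays lay below all other H1299 arrays. SERPINA1 fell by 1.16 at 3 µM (SE 0.293, adjusted p = 0.00199), with a mean of 16.7 ± 2.38 in azacitidine, against 77.2 ± 6.05 in vehicle (SD, n = 2 each). The call held in all 14 alternatives that gave a value, with adjusted p from 3.61e-05 to 0.0175. Both groups lay under the array median, at the 21.5 and 24.9 percentiles in azacitidine and the 46.5 and 45.7 percentiles in vehicle, so that the call compares dim signals.

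With decitabine the SERPINA1 signals in H1299 were 142 and 154 at 0.3 µM, 131 and 177 at 1 µM and 139 and 134 at 3 µM, all above the vehicle arrays. The differences from vehicle were 0.72 (95% interval 0.11 to 1.33, adjusted p = 0.0950), 0.76 (0.15 to 1.37, adjusted p = 0.0662) and 0.63 (0.02 to 1.24, adjusted p = 0.112), and none passed. SERPINA1 passed the filter partly through these decitabine arrays and not through vehicle, so the filter favours a rise here. The second probe set gave 104 and 107, 102 and 92.8, and 105 and 83.6 at the 3 doses, against 74.9 and 71.9 in vehicle.

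The drugs were compared directly in H1299 at the 3 matched doses, with p-values adjusted over all genes at each dose. SERPINA1 was lower with azacitidine than with decitabine at the 2 higher doses. The log2 difference was -0.44 at 0.3 µM (95% interval -1.05 to 0.17, adjusted p = 0.446), -1.14 at 1 µM (SE 0.293, adjusted p = 0.00469) and -1.79 at 3 µM (SE 0.293, adjusted p = 2.46e-05). At 3 µM azacitidine had a mean of 16.7 ± 2.38 and decitabine 137 ± 3.73 (SD, n = 2 each). No ratio is given, since both azacitidine signals lay under the lower quartile of their arrays. The call at 1 µM was lost with a pseudocount of 1 (adjusted p = 0.0872) and without decitabine 1 µM replicate 2 (adjusted p = 0.0604), while that at 3 µM held in all 14 alternatives that gave a value. SERPINA1 passed the filter through the decitabine arrays and not through those of azacitidine at 1 and 3 µM, so the filter favours this direction. Of the 7 genes 0, 1 and 2 passed at the 3 doses, where 6.37%, 33.9% and 56.3% of all genes did.

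**Figure D3:**
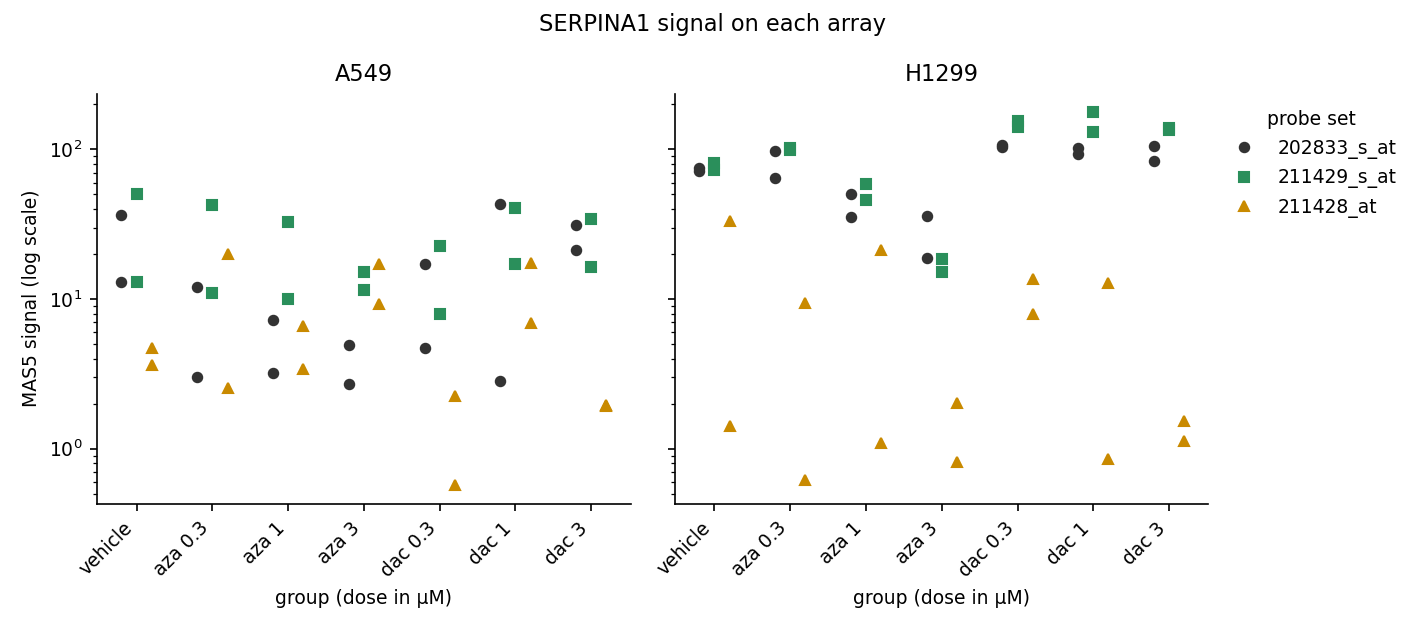
MAS5 signal of the 3 SERPINA1 probe sets on each array of A549 and H1299, by group (aza, azacitidine; dac, decitabine; dose in µM). The brightest probe set reads 15.1 and 18.4 with azacitidine at 3 µM in H1299 and 131 to 177 with decitabine over the 3 doses, and no A549 array exceeds 50.7.

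The other H1299 calls were in FGA, at signals under the array median. FGA fell by 0.68 with azacitidine at 3 µM (adjusted p = 0.00302), with 16.2 and 15.2 in azacitidine, against 42.8 and 45.8 in vehicle. It fell by 0.65 with decitabine at 0.3 µM (adjusted p = 0.0151), where the 2 arrays read 6.17 and 30.0. Azacitidine minus decitabine at 3 µM was -0.51 (adjusted p = 0.0212). With the second FGA probe set, which read 0.137 to 12.5 in H1299, these 3 differences were 0.02, 0.13 and 0.02, so the direction depends on the probe set. The call at 0.3 µM of decitabine was lost without vehicle replicate 1 (adjusted p = 0.0610), vehicle replicate 2 (0.0807) or decitabine replicate 1 (0.329), with the higher pseudocount (0.0669) and in a fit of H1299 alone (0.0561). The call between the drugs was lost without azacitidine replicate 1 (0.0638), azacitidine replicate 2 (0.0791) or decitabine replicate 2 (0.131), with the higher pseudocount (0.0808) and in a fit of H1299 alone (0.0643).

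The response to decitabine at 3 µM was compared between the lines, a test that also uses the A549 vehicle arrays. Of the 7 genes 0 passed the test of A549 minus H1299 (limma, adjusted p under 0.05), where 17.2% of all genes did, and 1 had an unadjusted p under 0.05. That was FGG, with a difference of -0.68 (95% interval -1.33 to -0.03, adjusted p = 0.147). SERPINA1 differed by -0.74 (-1.60 to 0.12, adjusted p = 0.242) and AGR2 by 0.33 (-0.03 to 0.68, adjusted p = 0.207).

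Genes of the members' pathways were read from 6 lists of coagulation, complement, plasma proteins, liver regulators and interleukin-6 signalling, secretory epithelium and disulfide isomerases, with the 7 genes left out. Of 184 listed genes 158 were on the array and 76 were tested, and a gene in more than 1 list counts once in the totals. In A549 azacitidine at 3 µM raised 10 and lowered 27 of the 76, where 22.1% of all genes were higher and 16.2% lower. Decitabine at 3 µM in A549 raised 15 and lowered 4, where 15% of all genes were higher and 10.8% lower. In H1299 azacitidine at 3 µM raised 15 and lowered 21 (32.2% and 21.6% of all genes), and decitabine raised 11 and lowered 9 (16.3% and 14.6%). The median log2 difference of the 76 was -0.25 with azacitidine and 0.06 with decitabine in A549, and -0.14 and -0.06 in H1299. After median centring the split over all genes turned to 1316 higher and 1680 lower in A549 with azacitidine, against 1770 and 1303 before it, and in H1299 with azacitidine to 1860 and 2511, against 2587 and 1735. The splits of the lists kept their direction under both scalings tried, except that the 76 genes had 11 each way in H1299 with decitabine after median centring, and as given below for the liver factors.

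Of 12 coagulation genes tested, 1 was higher and 6 were lower with azacitidine in A549, and 5 did not pass. PROS1, the anticoagulant protein S, fell by 1.16 (SE 0.149, adjusted p = 3.22e-06), with a signal of 88.0 ± 18.0 in azacitidine and 235 ± 16.9 in vehicle (SD, n = 2 each). The clotting initiator tissue factor (F3) fell by 1.16 and the protein C receptor PROCR fell by 0.90, while factor XII (F12) rose by 0.64. With decitabine 2 rose and 0 fell, the plasminogen activator PLAT by 0.94 and the Kunitz inhibitor TFPI2 by 0.28 (adjusted p = 0.0489). That count was 1 without decitabine 3 µM replicate 1 or replicate 2. In H1299 the list had 2 higher and 7 lower with azacitidine, led by the urokinase PLAU (-2.99) and the tissue factor inhibitor TFPI (-2.27), and 4 higher and 1 lower with decitabine.

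Complement genes had the same counts in A549 with azacitidine, 1 higher and 6 lower of 11 tested. C5, which follows C3 in the cascade, fell by 2.22 (SE 0.157, adjusted p = 1.02e-09), with a signal of 139.7 ± 12.3 in azacitidine and 769.9 ± 49.2 in vehicle (SD, n = 2 each). The C4b-binding protein chain C4BPB fell by 1.45 and the protease C1S by 1.29, while CD55, which protects cells from complement, rose by 0.95. The C4BPB call compares dim signals, with means of 8.73 in azacitidine and 82.1 in vehicle, under the array medians. Decitabine raised the C5a receptor C5AR1 by 0.89 and clusterin (CLU) by 0.44 and lowered none. That count of 2 was 1 without decitabine 3 µM replicate 2. C5AR1 had a mean of 67.8 in vehicle, under the array medians, and 153 in decitabine. In H1299 each direction had 1 call with azacitidine, CD55 (1.28) and CD59 (-0.70), and decitabine had 2 higher and 2 lower.

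Of the liver plasma proteins 7 of 34 on the array were tested, since most were dim in these lines. With azacitidine in A549 apolipoprotein H (APOH) fell by 1.501, with 73.5 ± 5.84 in azacitidine and 266 ± 7.45 in vehicle (SD, n = 2 each), and the fibrinogen-like FGL1 fell by 1.22. The retinol carrier RBP4 rose by 0.47 (adjusted p = 0.0247), a call that median centring ended. With decitabine RBP4 rose by 1.78 (SE 0.161, adjusted p = 9.04e-08), with 581 ± 50.7 in decitabine and 147 ± 20.9 in vehicle (SD, n = 2 each), and FGL1 fell by 0.49 (adjusted p = 0.0280). That count of 2 was 1 without vehicle replicate 2, decitabine 3 µM replicate 1 or decitabine 3 µM replicate 2. In H1299 azacitidine lowered 3, with PTX3 (-0.72) and APOE (-0.59), and decitabine lowered FGL1 (-0.93). This FGL1 call in H1299 compares dim signals, with means of 33.2 in decitabine and 92.1 in vehicle, under the array medians.

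Liver transcription factors and interleukin-6 signalling went both ways with azacitidine in A549, with 6 higher and 5 lower of 19, and 5 higher and 6 lower after median centring. The C/EBP family members CEBPG (1.12) and CEBPA (0.82) and the cytokine IL6 (0.83) rose. The nuclear receptor NR5A2 fell by 1.23, the interleukin-1 receptor IL1R1 by 1.11 and the pioneer factor FOXA1 by 0.63. Without vehicle replicate 2, or without azacitidine 3 µM replicate 1, 7 of the 19 passed. With decitabine IL6 rose by 1.06 (390.2 ± 63.2 in decitabine and 169.6 ± 18.9 in vehicle; SD, n = 2 each) and its effector STAT3 by 0.51, while the kinase TYK2 (-0.37) and the receptor subunit IL6ST (-0.31) were among 3 that fell. Of these 5, 3 passed without vehicle replicate 1, without vehicle replicate 2 or without decitabine replicate 1. In H1299 azacitidine raised 7, led by CEBPB (2.09) and CEBPG (1.65), and lowered 2, and decitabine raised 2 and lowered 1.

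Secretory epithelium genes moved in few cases with azacitidine in A549, with 1 higher and 3 lower of 16. The adhesion proteins CEACAM6 (-1.72) and CEACAM5 (-0.71) and the mucin MUC1 (-0.998) fell, and the mucin MUC5AC rose by 0.76. For CEACAM5 (means of 45.7 in azacitidine and 98.1 in vehicle) and MUC1 (24.2 and 80.4) the mean signals lay under the array medians. The count of 4 was 2 without azacitidine 3 µM replicate 2. Decitabine raised 6 and lowered 0, with the tetraspanin TSPAN1 rising by 1.87 (181 ± 8.36 in decitabine and 27.1 ± 14.02 in vehicle) and MUC1 by 1.65 (315 ± 27.8 in decitabine and 80.4 ± 31.97 in vehicle; SD, n = 2 each). The vehicle means of TSPAN1 and MUC1 lay under the array medians. In H1299 the list had 2 higher and 3 lower with azacitidine, from the iron-binding lipocalin LCN2 (1.82) to TM4SF1 (-2.40). LCN2 had a mean of 40.2 in H1299 vehicle, under the array medians, and 222 in azacitidine. With decitabine the list had 1 each way, where MUC1 rose (1.37) between dim means of 7.06 in vehicle and 68.9 in decitabine. TM4SF1, a relative of TM4SF4, also fell in H1299 with decitabine (-0.55).

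Of the disulfide isomerases, the family of AGR2, and the oxidases listed with them, 5 of 11 fell with azacitidine in A549 and 0 rose. PDIA4 fell by 1.46 (SE 0.115, adjusted p = 5.02e-09), with 640.2 ± 77.0 in azacitidine and 1819 ± 211 in vehicle (SD, n = 2 each). PDIA3 fell by 1.34 and PDIA6 by 0.75. Without vehicle replicate 2, or without azacitidine 3 µM replicate 1, 3 of the 11 passed. With decitabine ERP44 (0.57) and TMX4 (0.56) rose and 0 fell. In H1299 azacitidine raised 3 and lowered 5, PDIA3 (-0.93) and PDIA6 (-0.80) among them, and decitabine raised 2 and lowered 3.

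**Figure D4:**
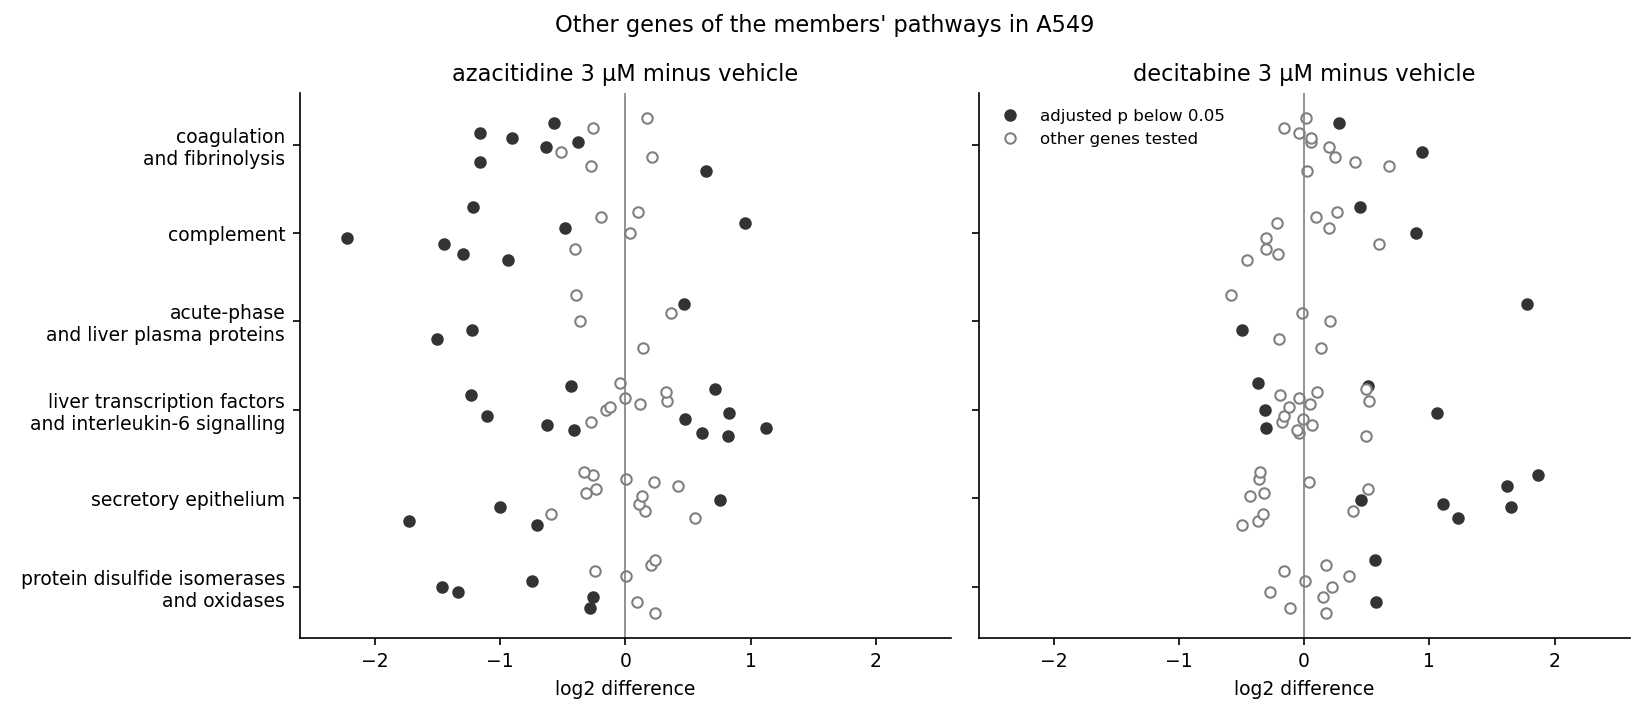
Log2 difference from vehicle in A549 at 3 µM for each tested gene of the 6 lists, azacitidine beside decitabine; filled points have an adjusted p below 0.05. Azacitidine has 27 filled points below 0 and 10 above, decitabine 4 below and 15 above, counting a gene once.

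The genes most like AGR2 and the fibrinogens over the 7 A549 groups are listed as a description. They were picked for a high correlation, over groups that include the azacitidine groups which chose the 7 genes, so the size of r is no result. Among 957 genes that spanned at least 1 on the log2 scale, those most like AGR2 by Pearson correlation of log2 group means were HSPB1 (0.997), CEMIP2 (0.994), HNMT (0.994), LAMB1 (0.993) and MAP3K8 (0.991). Those most like the mean of FGA, FGB and FGG were EBP (0.994), HSPA2 (0.989), GRB14 (0.989), MEGF9 (0.988) and MMD (0.988). HSPB1, a small heat shock protein, differed from vehicle by -1.26 with azacitidine and by 0.16 with decitabine at 3 µM, and EBP, an enzyme of cholesterol synthesis, by -1.07 and -0.14. SERPINA1 was least like the other 6, with r from 0.50 to 0.68, all of its A549 signals being under the array median.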

How the data were processed

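Total RNA of A549 and H1299 cells was measured on 28 one-colour oligonucleotide arrays, grouped by the labels' cell line, agent and dose. The authors deposited 1 MAS5 signal (intensity, linear scale) for each of 22277 probe sets, per the submitters' processing notes; version and scaling target are not given in the sources used here. Trimmed means of the arrays ran from 500.125 to 500.159. GEO's platform annotation named 1 gene for 19064 probe sets, several for 1043 and none for 2164.

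Signals were taken as log2(signal + 32). Probe sets above the median of their array on 2 or more arrays were kept (11800 singly named), and the brightest kept probe set stood for each gene. A limma model (limma 3.58.1, R 4.3.3, data.table version 1.17.8) with a mean for each group used all arrays (14 residual degrees of freedom, eBayes with trend), two-sided, with Benjamini-Hochberg adjustment at 0.05 over 8024 genes in each comparison. The number of arrays limits precision. Figures used matplotlib 3.10.9 in Python 3.11.15. The scripts were tested on simulated data.

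The 7 genes, the lists and the tests were chosen with earlier results of these data known. Named list genes are, per list, up to 3 with the largest called rise and 3 with the largest fall in A549 with azacitidine at 3 µM, and up to 2 each way in the other comparisons at 3 µM; some are only counted. Likeness took the 5 most correlated genes. Promoters came from RefSeq, which matched 6 of the 7 genes. Replicate numbers were not treated as pairs in the main fit. Differences of same-numbered arrays correlated between -0.244 and 0.263. Alternatives were quantile normalization, median centring, pseudocounts of 1 and 128, no filter or one at the 75th percentile, the second probe set, eBayes without trend, 1 line alone, a replicate block, a log2 fold threshold of 1, and leaving out each array.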

Additional observations from a re-analysis of the deposited data

Results flagged for a closer look

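Decitabine at 3 µM was left out of this search. In 4 cases both treated arrays lay above both vehicle arrays in 1 line and below them in the other. The difference between the lines was not tested in any of these 4. The share of all genes with such opposite sides was not counted, so nothing is read from the number of cases. For FGG the log2 difference from vehicle with azacitidine was -1.63 in A549 and 0.38 in H1299 at 1 µM (A549 minus H1299, -2.01), and -1.78 in A549 and 0.21 in H1299 at 3 µM (-1.99). For C3 with azacitidine at 0.3 µM it was -0.63 in A549 and 0.25 in H1299 (-0.89). For FGA with decitabine at 0.3 µM it was 0.22 in A549 and -0.65 in H1299 (0.87). The A549 azacitidine and vehicle arrays chose the genes. The A549 falls of FGG and C3 were therefore favoured by that choice, and nothing is read from their line differences. In H1299 FGG, C3 and FGA were under the array median on all 14 arrays. The H1299 side of each case is thus a difference between dim signals. At 3 µM of decitabine, where the difference between the lines was tested, TM4SF4 stood above vehicle in A549 (0.42) and below it in H1299 (-0.03), and did not pass (A549 minus H1299 0.44, adjusted p = 0.466). With 2 arrays a group no test for single far-off arrays was made.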

How the results depend on the processing

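The falls of SERPINA1 in H1299 with azacitidine at 3 µM, against vehicle and against decitabine, held in all 14 alternatives that gave a value. The second comparison used decitabine arrays through which SERPINA1 passed the filter. The other 6 calls on the 7 genes each changed under at least 1 alternative, and the cause was not tested; the fold threshold ended the FGG, AGR2 and FGA calls. With the second probe set the FGA differences in H1299 turned to 0.0196 (azacitidine 3 µM), 0.132 (decitabine 0.3 µM) and 0.0217 (azacitidine minus decitabine, 3 µM). In A549 with decitabine the 0, 0 and 1 genes called at 0.3, 1 and 3 µM became 1, 2 and 3 with the higher pseudocount, and the first became 1 with quantile normalization, median centring or eBayes without trend. At 3 µM a pseudocount of 1, the filter at the 75th percentile and the fold threshold each gave 0. For 3 µM against 0.3 µM the count of 1 became 2 with the higher pseudocount and 0 with a pseudocount of 1, median centring, no filter or the fold threshold. In H1299 the 2 calls with azacitidine at 3 µM became 0 (filter at the 75th percentile) and 1 (second probe set, fold threshold), and the 1 with decitabine at 0.3 µM became 0 under these 3. The 0 with decitabine at 1 µM became 1 with the higher pseudocount, the replicate block or 1 line alone, and the 0 at 3 µM became 1 with the higher pseudocount or 1 line alone. Azacitidine minus decitabine at 1 µM became 0 with the filter at the 75th percentile, and at 3 µM 4 with median centring, 0 with that filter and 1 with the higher pseudocount, the second probe set, 1 line alone or the fold threshold. The comparison of lines became 1 with the higher pseudocount. Leaving out each array in turn gave 0 to 1 genes for A549 decitabine 3 µM and for H1299 decitabine 0.3 µM against vehicle, 0 for A549 decitabine 3 µM against 0.3 µM and 1 to 3 for H1299 azacitidine minus decitabine at 3 µM.

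For the lists in A549 at 3 µM of azacitidine, the fold threshold gave 2 coagulation, 4 complement, 3 liver factor, 1 secretory and 2 isomerase genes, and the filter at the 75th percentile gave 4 complement, 5 liver factor and 2 secretory genes. No filter gave 5 plasma protein and 2 secretory genes, and a pseudocount of 1 gave 1 secretory gene. With decitabine, coagulation had 1 with median centring, a pseudocount of 1, either change of filter, eBayes without trend or 1 line alone, and 0 with the fold threshold. Complement had 1 with a pseudocount of 1 or the stricter filter, and plasma proteins had 1 with those and with the fold threshold, and 4 with no filter. Secretory genes had 3 with a pseudocount of 1 and 0 with the stricter filter. The fold threshold gave 0 complement, 1 liver factor and 0 isomerase genes, and in H1299 10 of the 36 list genes called with azacitidine and 2 of the 20 with decitabine. Leaving out each array gave 7 to 10 liver factor, 3 to 6 isomerase and 2 to 5 secretory genes with azacitidine, and 1 to 2 coagulation, 1 to 3 complement, 1 to 2 plasma protein and 3 to 5 liver factor genes with decitabine.

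The main fit did not pair the arrays by replicate number. Differences of same-numbered arrays correlated over 0.1 in 9 of 21 pairs of A549 groups and 3 of 21 of H1299 groups. Whether same-numbered arrays share an effect was not tested. With the replicate block FGG stayed at -0.71 (adjusted p = 0.0204) and the count for decitabine at 1 µM in H1299 became 1. After median centring all genes had a median difference of -0.10, against 0.08 before it, in H1299 with azacitidine at 3 µM, and the split of decitabine 3 µM against 0.3 µM was 317 higher and 364 lower, against 459 and 263. Signals under the array median limit what H1299 shows of the 7 genes, SERPINA1 in vehicle and with azacitidine at 1 and 3 µM included.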
